A study of Mus musculus with 5 samples.

Results

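The genes described here are those that carry a cell through mitosis: the kinases and cyclins that start it, the spindle checkpoint, the kinetochore, the motors of the spindle, the proteins that compact and separate chromosomes, and those that pinch the daughter cells apart. The list held 50 mouse genes, chosen by name, of 18193 genes with a named probe set on the arrays. Of the 50, 49 were measured, and all 49 had a mean signal of at least 100, the level required of the 14109 genes tested. Ccnb1, which encodes cyclin B1, had no probe set named with its symbol alone and is not analysed here. Where a gene had several probe sets, the brightest on average over the arrays stood for it. RNA from 4 mouse medulloblastomas, tumours of the cerebellum, and from 1 P5 mouse cerebellum, taken to mean postnatal day 5, had been hybridised to Affymetrix arrays. The labels give neither genotype nor treatment, sex or tumour age for the single arrays, although the series title concerns tumours from Cxcr6 mutant mice and an inhibitor of Smoothened, so tissue and age cannot be told apart. The title of medulloblastomas 1 and 2 starts with ken and that of the other arrays with hmk. The submitters state that replicates are too few for statistics: the cerebellum has none, and the tumour arrays give the only measure of spread.

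In a dividing cell, cyclin-dependent kinase 1 bound to a B-type cyclin triggers chromosome compaction and spindle assembly, kinetochores attach each chromosome to the spindle, and the checkpoint holds back the anaphase-promoting complex until all are attached. That ubiquitin ligase then marks securin and cyclin B for destruction, which frees separase to cut the cohesin between sister chromatids. Transcripts of these genes peak in the G2 and M phases, under the control of the MuvB complex, B-Myb, FoxM1 and the CCAAT-binding factor NF-Y, and so serve as a measure of how many cells divide. In the early postnatal cerebellum the dividing cells are above all the granule neuron precursors of the external granule layer, the cells from which Hedgehog-driven medulloblastoma arises.

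Promoter sequences are shown first because the transcripts of these genes are known to rise together through a shared promoter element, the cell cycle genes homology region or CHR, which the MuvB complex binds. Sequences are from RefSeq, build GRCm38.p6, which held 45 windows for 42 of the 50 genes, each from 250 bases before to 50 bases after an annotated start. The CHR was searched on both strands as TTTGAA or TTCGAA, and the NF-Y motif as CCAAT. The motifs were counted separately, whether or not their matches overlapped. The 120 bases before the start are given for 6 genes with a CHR match within 50 bases before it, and for Pttg1, the gene furthest above the cerebellum. Capitals mark the matches, so that TTCAAA and ATTGG are matches on the opposite strand.
Cdk1: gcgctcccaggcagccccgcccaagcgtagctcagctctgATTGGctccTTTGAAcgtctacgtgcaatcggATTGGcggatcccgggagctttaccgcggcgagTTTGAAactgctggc
Kif11: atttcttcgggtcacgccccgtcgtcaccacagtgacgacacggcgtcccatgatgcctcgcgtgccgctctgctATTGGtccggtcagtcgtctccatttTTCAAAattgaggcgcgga
Cdc20: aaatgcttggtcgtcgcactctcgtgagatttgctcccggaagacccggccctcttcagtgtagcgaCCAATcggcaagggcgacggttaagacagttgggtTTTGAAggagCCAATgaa
Top2a: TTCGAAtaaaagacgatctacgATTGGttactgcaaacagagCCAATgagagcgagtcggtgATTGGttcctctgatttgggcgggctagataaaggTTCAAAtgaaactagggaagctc
Ube2c: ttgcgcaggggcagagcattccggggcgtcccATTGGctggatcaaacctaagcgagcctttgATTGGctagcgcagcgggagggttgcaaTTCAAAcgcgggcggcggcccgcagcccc
Espl1: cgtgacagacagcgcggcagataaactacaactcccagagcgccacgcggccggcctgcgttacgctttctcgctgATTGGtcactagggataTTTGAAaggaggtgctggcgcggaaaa
Pttg1: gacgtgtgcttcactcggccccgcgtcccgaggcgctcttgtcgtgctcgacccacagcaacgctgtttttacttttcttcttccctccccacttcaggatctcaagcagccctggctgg
These stretches lie at chr10:69352913-69353032 (- strand) for Cdk1, chr19:37376262-37376381 (+ strand) for Kif11, chr4:118437344-118437463 (- strand) for Cdc20, chr11:99024190-99024309 (- strand) for Top2a, chr2:164769809-164769928 (+ strand) for Ube2c, chr15:102296173-102296292 (+ strand) for Espl1 and chr11:43425982-43426101 (- strand) for Pttg1.

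In Cdk1 the CHR match nearest the start began 15 bases before it, in Cdc20 it began 18, in Kif11 19, in Top2a 23, in Espl1 27 and in Ube2c 29 bases before it. Cdk1 held another match 71 bases before the start, and Top2a held 4 in its whole window. A CHR match was present in 34 of the 45 windows (75.6%), against 6316 of 32851 windows of all genes (19.2%). It lay within 50 bases of the start in 30 of the 45 windows (66.7%), against 5.31% of all windows. CCAAT was present in 34 of the 45 windows (75.6%), against 37.4% of all windows, and at least 2 copies in 51.1%, against 11.7%. Both motifs occurred in 31 of the 45 windows (68.9%), against 7.52% of all windows. In 18 windows of 17 S phase genes, the other wave of cell cycle transcription, CCAAT was present in 72.2%, whereas a CHR match occurred in 22.2% and lay near the start in 5.56%. The windows of Pttg1, Birc5, Mad2l1, Melk, Ncaph, Nuf2, Nusap1 and Plk4 held neither motif. These counts describe letters in the windows and not binding.

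**Figure D1:**
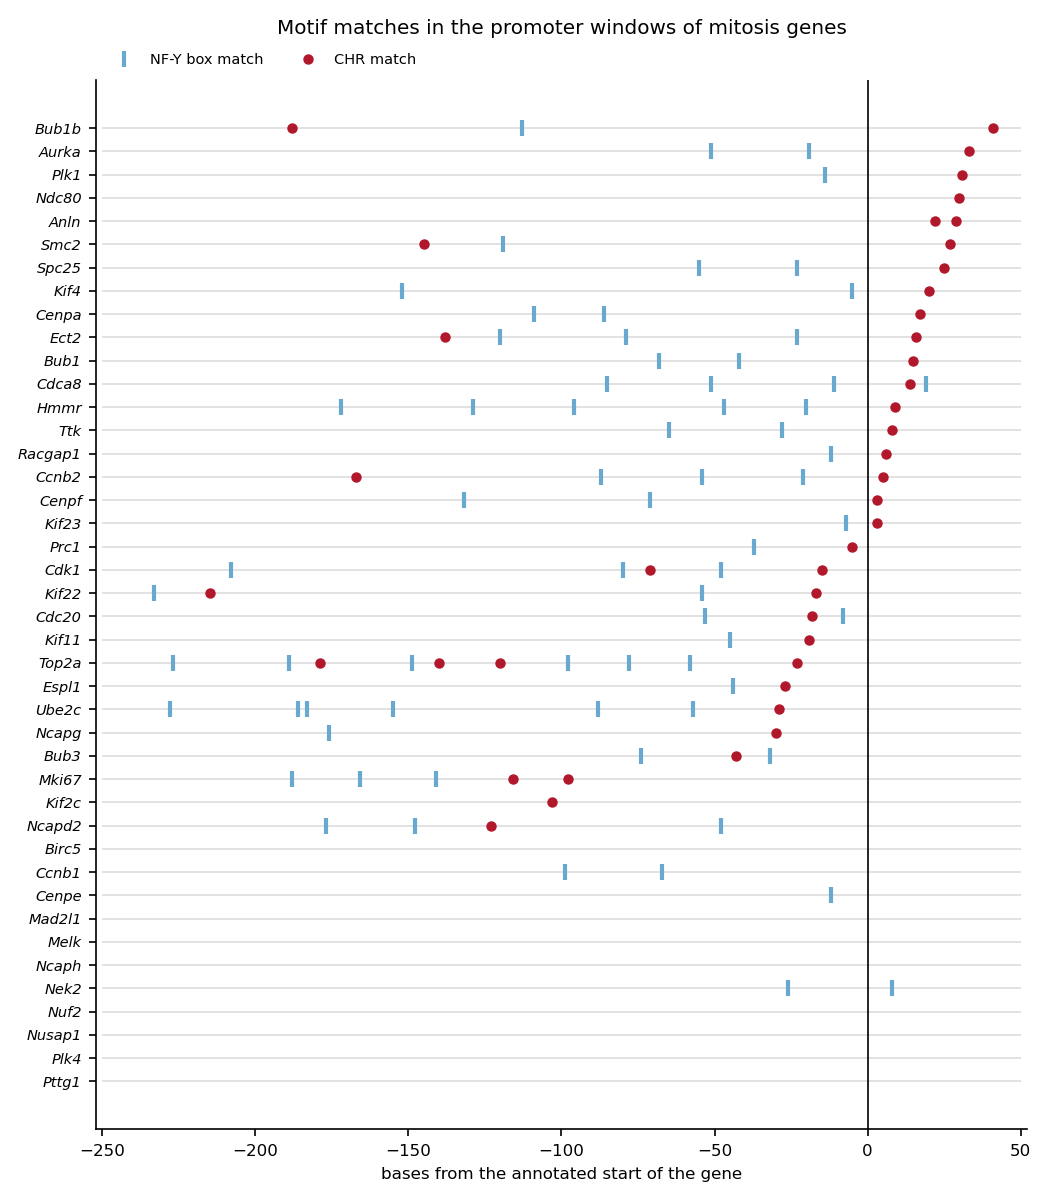
Motif matches in 1 promoter window for each of the 42 mitosis genes with a window (rows), by distance in bases from the annotated start (horizontal axis). Circles are CHR matches and bars are NF-Y motif matches on either strand. CHR matches gather within 50 bases of the start, and NF-Y motifs lie mostly upstream of them.

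Mitosis genes were higher in the medulloblastomas than in the P5 cerebellum on average, by amounts that ran from 0.05 for Tpx2 to 2.02 for Pttg1 on the log2 scale. The mean log2 difference was above 0 for 49 of 49 genes, against 45.4% of all genes tested, and its median over the 49 was 0.70, against -0.07 over all 14109. Signals of 43 genes lay above the cerebellum in each of the 4 tumours (all genes tested: 25.1%), and none lay below it in all 4 (all genes: 30.8%). The other 6, Foxm1, Cdca8, Aurkb, Nuf2, Tpx2 and Ube2c, each had 1 tumour below the cerebellum. Differences throughout are means of log2(signal + 32) in the 4 tumours minus that in the cerebellum, with the standard error (SE) of limma's fit after ±. Only Pttg1 passed the test over all genes, a Benjamini-Hochberg adjusted p under 0.05 in limma, which called 0.312% of all genes higher and 0.177% lower. At an unadjusted p under 0.05 there were 25 of 49 genes on the higher side, where the share of all genes was 7.72%, and none on the lower side (7.44%). The SE of single genes was between 0.21 and 0.49, and adjusted p-values of the 48 genes other than Pttg1 ran from 0.0682 to 0.957. With 4 arrays set against 1, the smallest p of an exact permutation test is 0.2.

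These are bulk tissues, in which more dividing cells and more RNA per dividing cell cannot be told apart. Other cell types differed as well. All 10 microglia and macrophage markers lay above the cerebellum in every tumour, with a summed signal between 17769 and 19822 in tumours, against 6866 in cerebellum. Summed signals here are over all tested markers of a list, whichever way each went. All 8 endothelial markers lay below the cerebellum in every tumour, with a sum of 2179 to 3121 in tumours, against 6402 in cerebellum. So did 5 of 8 astrocyte and Bergmann glia markers, and all 8 summed to 22285 to 26399 in tumours, against 65322 in cerebellum. Also below were 5 of 8 meningeal and fibroblast markers, and all 8 summed to 7565 to 10445 in tumours, against 18125 in cerebellum. The other direction, above the cerebellum in every tumour, was seen for the glial markers S100b (1.62) and Slc1a2 (0.71) and for Pdgfra (1.03) of the meningeal list. Of 7 markers of granule neuron precursors, 5 lay above the cerebellum in every tumour. Zic1 lay below it in every tumour (-0.40), and Zic2 was on average on the lower side (-0.24). All 7 summed to 40068 to 46421 in tumours, against 34440 in cerebellum, and Zic1 made up most of that cerebellum sum (24337). Atoh1, the transcription factor that defines these precursors, read 4178, 7341, 9505 and 7872 in medulloblastomas 1 to 4, against 963 in the P5 cerebellum, and was called (2.81 ± 0.40, limma adjusted p = 0.0336). Purkinje cell markers were present in both tissues, with a summed signal of 6811 to 28388 in tumours, against 27151 in cerebellum, and went both ways: 3 of 6 were lower in each tumour and 2, Pvalb (2.38) and Ppp1r17 (1.07), higher. Of 8 lymphocyte markers 3 were bright enough to test, with 1 above and 1 below the cerebellum in every tumour. These 3 summed to 500.1 to 835 in tumours, against 878 in cerebellum. No marker was listed at 0. The part of these cell types in the result was not tested.

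The kinases and cyclins of mitosis, listed together with the transcription factor gene Foxm1, had a median difference of 0.65 over 9 genes. For 8 of these, all but Foxm1, all 4 tumours lay above the cerebellum, with no call. Cdk1, the kinase of mitotic entry, read 3995, 5436, 5042 and 4198 in medulloblastomas 1 to 4, against 3152 in the P5 cerebellum (0.55 ± 0.24). All 4 tumours lay above the cerebellum, medulloblastoma 2 furthest. Polo-like kinase Plk1, which acts at centrosomes and kinetochores, read 1319, 1613, 1841 and 1283 in tumours, against 892 in cerebellum (0.73 ± 0.28), without overlap. Plk4, the kinase that sets centriole number, read 1230.2, 2034, 1623 and 1821 in tumours, against 991 in cerebellum (0.72 ± 0.31). Melk, a kinase abundant in dividing neural progenitors, had the largest difference of this group (0.91 ± 0.34), at 819, 1403, 1199.8 and 1379.7 in tumours, against 612 in cerebellum. Aurka, the spindle pole kinase, read 1296, 2026, 1787 and 1830.2 in tumours, against 1129 in cerebellum (0.59 ± 0.29), with medulloblastoma 1 closest to the cerebellum. Nek2, a centrosome kinase, read 633, 1297, 1123 and 1056 in tumours, against 598 in cerebellum (0.70 ± 0.38). At its next brightest probe set medulloblastoma 1 lay below the cerebellum and the others above it (284, 623, 832 and 759.5 in tumours, against 588 in cerebellum), and the mean difference there was -0.02. The cyclin genes Ccna2 and Ccnb2 differed by 0.65 ± 0.24 and 0.39 ± 0.28 and lay above the cerebellum in every tumour.

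Foxm1, the forkhead factor that activates many of the other genes, had one of the smaller differences. It read 1689, 2276, 1719 and 1294 in medulloblastomas 1 to 4, against 1540.0 in the P5 cerebellum (0.15 ± 0.31, limma adjusted p = 0.846), so that the groups overlapped, with medulloblastoma 4 below the cerebellum. Within the hmk arrays its difference was -0.04. Both other bright probe sets of Foxm1 were on the higher side, by 0.40 and 0.41, with all 4 tumours above the cerebellum at the first (923, 1367, 1371 and 1049.7 in tumours, against 871 in cerebellum) and 3 of 4 at the other (737, 1121, 1316 and 1206 in tumours, against 796 in cerebellum).

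**Figure D2:**
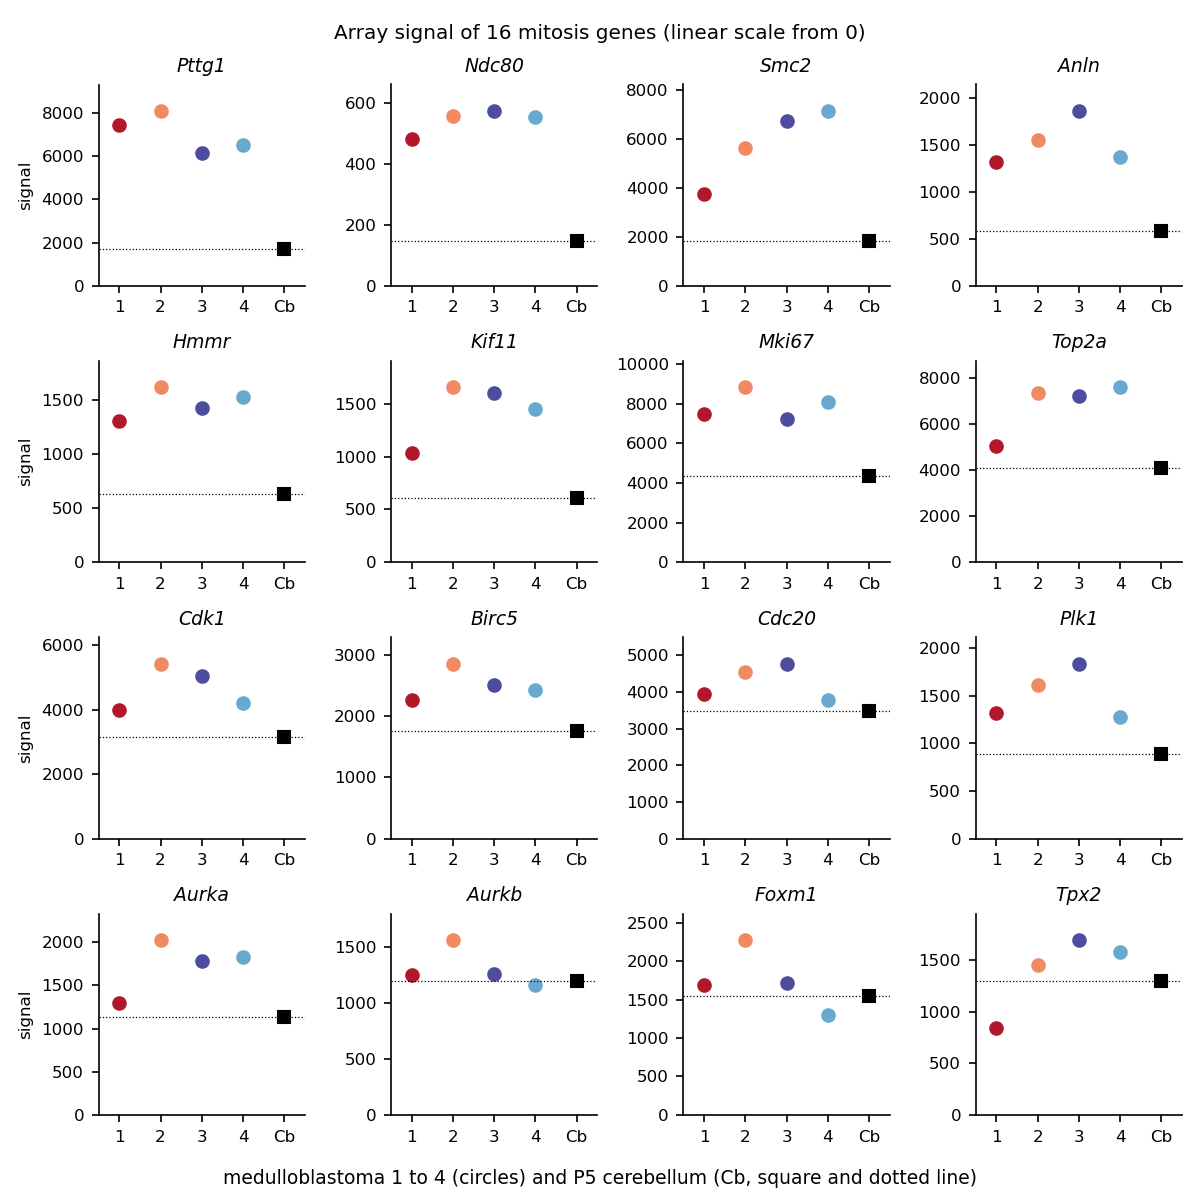
Array signal (vertical axis, linear, from 0) of 16 mitosis genes in medulloblastomas 1 to 4 (circles) and in the P5 cerebellum (Cb, square and dotted line), 1 array each. All tumours lie above the cerebellum for Pttg1, Ndc80, Smc2, Anln, Hmmr, Kif11, Mki67, Top2a, Cdk1, Birc5, Cdc20, Plk1 and Aurka, and the groups overlap for Aurkb, Foxm1 and Tpx2.

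All 5 spindle checkpoint genes lay above the cerebellum in every tumour, with a median difference of 0.70 and none called. Mad2l1, whose product blocks Cdc20 at unattached kinetochores, read 1878, 3355, 4166 and 4170.0 in medulloblastomas 1 to 4, against 1492 in the P5 cerebellum (1.10 ± 0.42). Medulloblastoma 1 was near the cerebellum and the other tumours were well above it. Bub3, which brings the checkpoint kinases to the kinetochore, read 6411, 4311, 4090.3 and 4170.4 in tumours, against 2694 in cerebellum (0.78 ± 0.29), with medulloblastoma 1 highest. The kinase gene Bub1 read 896, 1104, 1494 and 1416 in tumours, against 729 in cerebellum (0.70 ± 0.33). Another, dimmer probe set of Bub1 showed hardly any difference (0.04), with medulloblastomas 1 and 3 below the cerebellum. Bub1b, which encodes BubR1, read 1538, 2439, 1976 and 1696 in tumours, against 1217 in cerebellum (0.62 ± 0.29). The dimmest of the Bub1b probe sets was on average slightly lower (-0.06), at 56.5, 376, 213 and 209.6 in tumours, against 192 in cerebellum. Ttk, the Mps1 kinase at the head of the checkpoint, differed by 0.59 ± 0.32.

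The chromosomal passenger complex, a kinase and its partners, corrects faulty attachments and later marks the cleavage site. Its 4 measured genes had a median difference of 0.35, every tumour lay above the cerebellum for 2 of them, with no call. Birc5, which encodes survivin, read 2260.3, 2861, 2507 and 2436 in medulloblastomas 1 to 4, against 1756 in the P5 cerebellum (0.51 ± 0.23). The scaffold gene Incenp read 2933, 2628, 2972 and 3447 in tumours, against 1930.2 in cerebellum (0.62 ± 0.23). Of its other bright probe sets 1 was on the higher side (0.82) and 2 were not (-0.18 and -0.25), with tumours on both sides of the cerebellum at these 2 (497, 556, 278 and 74.7 in tumours, against 329 in cerebellum; 286, 274, 139 and 471 in tumours, against 327 in cerebellum). For the kinase gene Aurkb the groups overlapped, at 1243, 1559.8, 1258 and 1157 in tumours, against 1189 in cerebellum (0.12 ± 0.26), and so did those of Cdca8, which encodes borealin, at 2479, 2809, 3245 and 2349 in tumours, against 2353 in cerebellum (0.20 ± 0.25). The other probe sets of both genes gave larger differences: 0.69 for Aurkb, at 324, 699, 789 and 845 in tumours, against 376 in cerebellum, and 0.85 and 0.97 for Cdca8, at 1564, 2514, 2404 and 1875 in tumours, against 1123 in cerebellum and at 614, 1056, 1095 and 1151 in tumours, against 469 in cerebellum. Every tumour lay above the cerebellum at both of those Cdca8 probe sets, and 3 of 4 did for Aurkb.

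Kinetochore genes had a median difference of 0.91 over 7 genes, and for 6 every tumour lay above the cerebellum. The Ndc80 complex, which grips the microtubule, has genes for 4 subunits on the list. Ndc80 itself read 482, 556, 574 and 555 in medulloblastomas 1 to 4, against 147 in the P5 cerebellum (1.68 ± 0.30, limma adjusted p = 0.0682), with the tumours close together and far from the cerebellum. Spc25 read 1072, 1635, 2137 and 2671 in tumours, against 796 in cerebellum (1.13 ± 0.44), and Spc24 read 1005, 1555, 1097 and 759.7 in tumours, against 482 in cerebellum (1.10 ± 0.37), with medulloblastoma 4 highest for Spc25 and lowest for Spc24. Another, dimmer probe set of Spc25 showed hardly any difference (0.02), at 171, 319, 221 and 252 in tumours, against 231 in cerebellum. Nuf2, the partner of Ndc80, differed by 0.29 ± 0.33, with medulloblastoma 3 below the cerebellum. Cenpa, the histone that defines the centromere, read 1909, 2949.6, 2913 and 2836 in tumours, against 1379.5 in cerebellum (0.91 ± 0.29). Of the other probe sets of Cenpa, the brighter was higher in every tumour, with a cerebellum signal of 35.1 that leaves only a direction, and the dimmer was not (-0.52), at 153, 194, 63.2 and 16.5 in tumours, against 137 in cerebellum. Cenpf, a large outer kinetochore protein, read 2508, 3641, 2594 and 2834 in tumours, against 1957 in cerebellum (0.54 ± 0.26), and its 2 other probe sets gave 0.14 and -0.85. At the dimmer of them the tumours ran on both sides of the cerebellum (127.9, 466, 118 and 30.1 in tumours, against 266 in cerebellum). The kinesin gene Cenpe differed by 0.59 ± 0.28, without overlap.

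Motor and spindle genes had a median difference of 0.89 over 10 genes, with 9 above the cerebellum in every tumour but no call. Hmmr, which helps organise spindle poles, read 1304, 1618, 1425 and 1531 in medulloblastomas 1 to 4, against 628 in the P5 cerebellum (1.18 ± 0.25, limma adjusted p = 0.102). Kif11, the motor that pushes spindle poles apart, read 1033, 1658, 1600.5 and 1451 in tumours, against 607 in cerebellum (1.18 ± 0.31). In both genes all tumours were well above the cerebellum at these probe sets. The other 4 probe sets of Hmmr and 2 of Kif11 were on average on the higher side as well. At the dimmest of each, though, medulloblastoma 1 lay below the cerebellum, at 165 against 181 for Hmmr and 477 against 539 for Kif11. Kif23, a motor of the central spindle, varied most among the tumours, at 767, 2179, 1213 and 1682 in tumours, against 690.0 in cerebellum (0.95 ± 0.49). Kif2c, which takes microtubules apart at centromeres, read 945, 1551, 1678 and 1484 in tumours, against 714 in cerebellum (0.92 ± 0.34), with -0.11 at the dimmest of its 3 other probe sets. Nusap1, a microtubule bundling protein, read 2179.7, 2875, 3693 and 2940.4 in tumours, against 1553 in cerebellum (0.87 ± 0.30), whereas a much dimmer probe set gave -0.11, at 122, 349, 246 and 214 in tumours, against 239 in cerebellum. The motor genes Kif20a and Kif22 differed by 0.91 ± 0.41 and 0.54 ± 0.30, Prc1, the bundler of the central spindle, by 0.24 ± 0.25, and the chromosome motor Kif4 by 0.08 ± 0.25.

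Tpx2, the activator of the Aurka kinase on the spindle, had the smallest mean difference of the 49 genes. Its brightest probe set read 848, 1452, 1698 and 1579 in medulloblastomas 1 to 4, against 1298 in the P5 cerebellum (0.05 ± 0.38), with medulloblastoma 1 below the cerebellum and the other 3 above. The 3 other probe sets disagreed: 1 was higher in all 4 tumours (0.78; 1244, 1939, 1095 and 1585 in tumours, against 819.7 in cerebellum), and 2 were on the lower side (-0.91 and -0.47). At the first of these 2, all tumours were below the cerebellum, at 811, 673, 453 and 334 in tumours, against 1041 in cerebellum. The sign of Tpx2 therefore depends on the probe set.

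All 3 cytokinesis genes lay above the cerebellum in every tumour, with a median difference of 1.10. Anln, which encodes the contractile ring scaffold anillin, read 1312, 1550.4, 1860.0 and 1371 in medulloblastomas 1 to 4, against 581 in the P5 cerebellum (1.33 ± 0.27, limma adjusted p = 0.102), and every tumour was more than 2-fold above the cerebellum. Ect2, the exchange factor that activates RhoA at the cleavage site, read 1167, 1967, 2376 and 1942 in tumours, against 823 in cerebellum (1.10 ± 0.37). Its partner Racgap1 read 1880.2, 3458, 3701 and 3428 in tumours, against 1544 in cerebellum (0.95 ± 0.37). For Ect2 and Racgap1 medulloblastoma 1 was the lowest tumour by a wide margin.

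All 7 genes of chromosome structure lay above the cerebellum in every tumour, with a median difference of 0.77. Smc2, the ATPase subunit shared by both condensins, read 3737, 5633, 6711 and 7136 in medulloblastomas 1 to 4, against 1816 in the P5 cerebellum (1.62 ± 0.35, limma adjusted p = 0.107), and its next brightest probe set gave 2.07. Its 3 dimmer probe sets were also higher in every tumour, but with cerebellum signals between 21.1 and 28.5, which leave only a direction. Smc4, the partner of Smc2, read 3844, 5213, 4944 and 4934 in tumours, against 2745 in cerebellum (0.77 ± 0.24). The condensin I subunit gene Ncapg read 545, 953, 1037 and 1009 in tumours, against 419 in cerebellum (0.98 ± 0.38), while Ncapd2 and Ncaph, which encode other subunits of it, differed by 0.63 ± 0.27 and 0.48 ± 0.23. At a dimmer probe set of Ncapd2 the difference was 0.18, with medulloblastomas 3 and 4 below the cerebellum. Mki67, the proliferation marker that coats mitotic chromosomes, read 7488, 8839.9, 7251 and 8095 in tumours, against 4377 in cerebellum (0.85 ± 0.21), a 1.8-fold difference on the scale used. Top2a, the topoisomerase that untangles sister chromatids, read 5052, 7345, 7221 and 7593 in tumours, against 4068 in cerebellum (0.72 ± 0.27). In both Mki67 and Top2a the tumours lay wholly above the cerebellum at these probe sets. A dimmer probe set of Top2a gave 0.49, with medulloblastoma 1 below the cerebellum (412, against 467) and the other tumours above it.

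Pttg1 was the only gene of the 49 that rose in the tumours by the test over all genes. It encodes securin, which holds separase inactive until anaphase. Its signal was 7452, 8100.0, 6122 and 6523 in medulloblastomas 1 to 4, against 1698 in the P5 cerebellum, which is 2.02 ± 0.23 on the log2 scale (limma, adjusted p = 0.0238), or 4.07-fold. Single tumours were above the cerebellum by 1.83 to 2.23, lowest in medulloblastoma 3. The probe set is of a kind that can bind more than 1 transcript, but both other probe sets of Pttg1 were also higher in every tumour, at 1625, 2297, 2266 and 2147 in tumours, against 668 in cerebellum (1.58) and at 535, 579, 262 and 223 in tumours, against 20.7 in cerebellum, a cerebellum signal so low that the last can be read only as a direction. Without probe sets of that kind the adjusted p was 0.0556, with a difference of 1.58. Leaving out medulloblastoma 2, 3 or 4 gave an adjusted p of 0.0880, 0.0501 or 0.0670, with differences of 1.96 to 2.09, and without the variance trend it was 0.113.

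At their brightest probe sets the other genes of anaphase onset differed little from the cerebellum. Cdc20, the activator of the anaphase-promoting complex, read 3959, 4537, 4779.8 and 3787 in medulloblastomas 1 to 4, against 3476 in the P5 cerebellum (0.29 ± 0.22). Ube2c, the conjugating enzyme of that complex, read 3902, 5623, 4741 and 2996 in tumours, against 3367 in cerebellum (0.32 ± 0.33), with medulloblastoma 4 below the cerebellum. Espl1, which encodes separase itself, read 977, 1397, 1252 and 1028 in tumours, against 919 in cerebellum (0.32 ± 0.28). All tumours were above the cerebellum for Cdc20 and Espl1 at these probe sets, but by small amounts. The next brightest probe set of Cdc20 gave 0.47, at 2103, 3607, 3734 and 3083 in tumours, against 2195 in cerebellum. There medulloblastoma 1 lay below the cerebellum and the others above it. Its dimmest probe set was higher in every tumour, with a cerebellum signal of 49.5 that leaves only a direction.

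**Figure D3:**
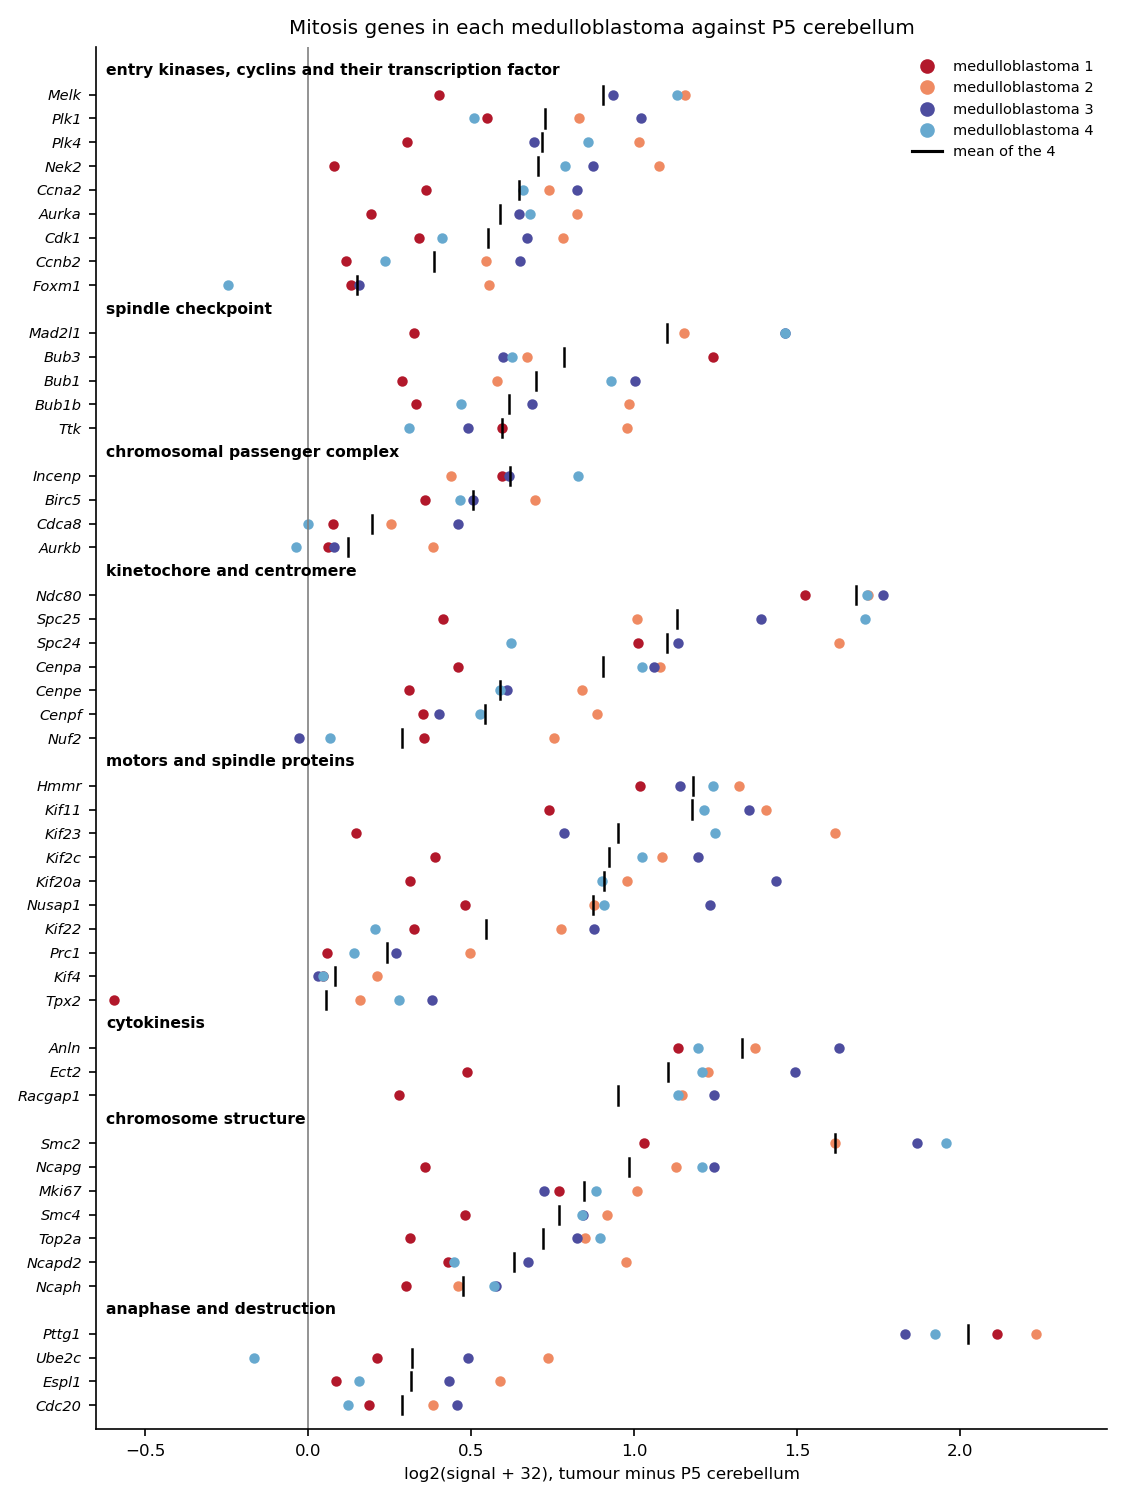
Difference of each medulloblastoma from the P5 cerebellum on the log2(signal + 32) scale (horizontal axis) for 49 mitosis genes grouped by role (rows). Circles are the 4 tumours and black bars their mean. Every mean lies right of 0, Pttg1 is furthest, and medulloblastoma 1 is often the leftmost circle.

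Fold changes of 2 and above were few. The mean difference was at least 1 on the log2 scale in 10 genes, Pttg1, Ndc80, Smc2, Anln, Hmmr, Kif11, Spc25, Ect2, Mad2l1 and Spc24, where 5.46% of all genes reached it. Each tumour was at least 2-fold above the cerebellum in 5 genes, Pttg1, Ndc80, Smc2, Anln and Hmmr, where the share of all genes was 2.01%.

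Other probe sets of the same genes, which the choice of the brightest had set aside, were mostly on the higher side too. The 49 genes had 116 probe sets, and 33 genes had at least 1 other with a mean signal of at least 100. At the next brightest of these, the median difference was 0.71, beside 0.70 at the brightest probe sets of the same 33 genes. Every tumour was above the cerebellum at 22 of the 33, where the share for the next brightest probe sets of all genes was 25.7%. Of all 60 other bright probe sets, 50 were on the higher side and 10 on the lower. These 10 belonged to 8 genes, Bub1b, Cenpa, Cenpf, Incenp, Kif2c, Nek2, Nusap1 and Tpx2. Probe sets of 1 gene share the RNA and the array, so they check the probes and not the samples.

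**Figure D4:**
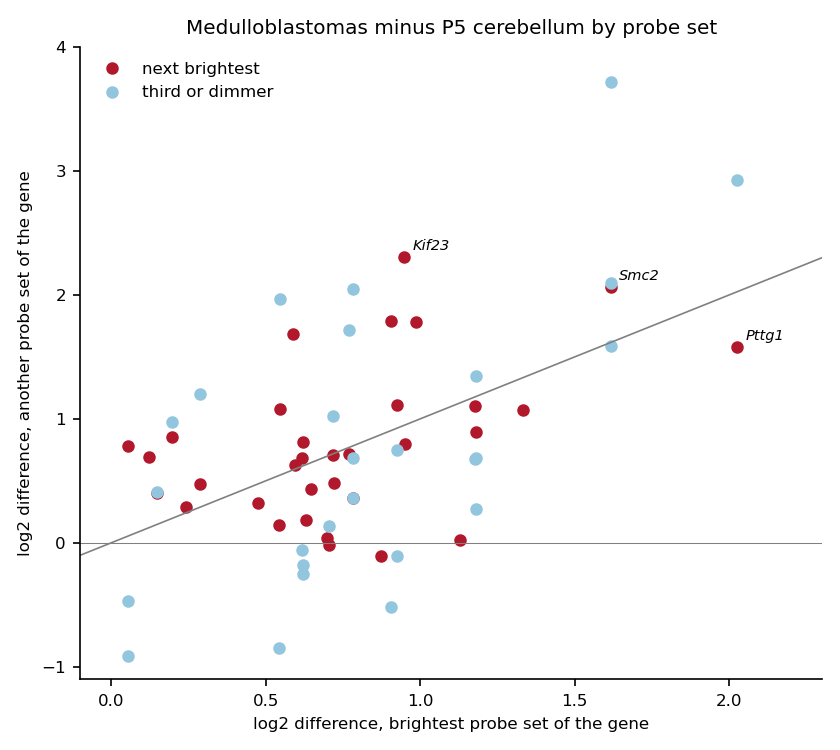
Mean log2 difference, medulloblastomas minus P5 cerebellum, at the brightest probe set of a gene (horizontal axis) and at another probe set of that gene with a mean signal of at least 100 (vertical axis). Red points are the next brightest and light blue points dimmer probe sets, and the diagonal marks equal values. Most points lie above 0, and 10 of 60 lie below it; points with a cerebellum signal under 100 show a direction only.

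Medulloblastoma 1 had the lowest mitosis signals of the 4 tumours. The median difference from the cerebellum was 0.35 in medulloblastoma 1, 0.88 in medulloblastoma 2, 0.79 in medulloblastoma 3 and 0.68 in medulloblastoma 4, where the medians of all genes were -0.05, -0.04, -0.07 and -0.05. Medulloblastoma 1 was the lowest of the 4 tumours in 34 of 49 genes, against 32.8% of all genes, and the highest in 1, Bub3. Medulloblastoma 2 was the highest tumour in 26 of 49 genes (20.6% of all genes). Even so, 48 of 49 genes were above the cerebellum in medulloblastoma 1, 49 in medulloblastoma 2, 48 in medulloblastoma 3 and 45 in medulloblastoma 4. Medulloblastoma 1 also had the highest 3'/5' signal ratios, which rise as RNA degrades: 1.45 for actin, where the remaining arrays had 1.21 to 1.35, and 0.946 for Gapdh, where they had 0.731 to 0.824. Its summed signal of 7 markers of postmitotic granule neurons was also highest, at 46012, against 21127 to 27750 in the other tumours and 29509 in the cerebellum. That list was split, every tumour being above the cerebellum for 4 of 7, among them Gabra6 (called, 3.99, limma adjusted p = 0.0468) and Cbln3 (3.11), and 2, Neurod1 (-0.81) and Neurod2 (-1.80), below it. Purkinje cell markers were also highest in medulloblastoma 1, at 28388, against 6811 to 16820.1 in the other tumours. Whether any of these bears on its lower mitosis signals was not tested.

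Without medulloblastoma 1, limma called 19 of the 49 genes higher, where 3.18% of all genes were called higher, and the median difference was 0.79. Without medulloblastoma 2, 3 or 4 it called none of them (0.0142%, 0.0709% and 0% of all genes called higher), with 14, 14 and 15 at an unadjusted p under 0.05, where 1549, 1721 and 1702 of all 14109 genes passed it. Those counts of all genes hold both directions. The median difference of the mitosis genes then was 0.68, 0.63 or 0.68. Genes above the cerebellum in all 3 tumours kept numbered 44 without medulloblastoma 1 (32.3% of all genes), 43 without 2 (27.3%), 44 without 3 (28.1%) and 47 without 4 (27.8%). Scaling the arrays to equal medians gave 2 mitosis genes called (0.553% of all genes) and 46 above the cerebellum in every tumour (35.3%), quantile normalization gave 2 (0.432%) and 43 (26.5%). Without the variance trend limma called none, with 12 on the higher side at an unadjusted p under 0.05 (6.44% of all genes on that side). Within the hmk arrays, which hold 2 tumours and the cerebellum, the median was 0.76, and 44 of 49 genes were above the cerebellum in both tumours, where the share of all genes was 37.6%. That fit called 23 of the 49 higher (5.93% of all genes) but rests its spread on just 1 pair of tumours. The ken arrays hold no cerebellum, and set against the hmk cerebellum they gave a median of 0.66, with 48 of 49 genes above it in both tumours (34.4% of all genes) and 1 called (0.149% of all genes called higher).

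Between the 2 ken and the 2 hmk tumours no mitosis gene was called by limma, where the share of all genes was 0.0425%. At an unadjusted p under 0.05 there were 5 of 49, where the share of all genes was 12.3%. The median difference, ken minus hmk, was -0.12, and 18 of 49 genes were higher in the ken tumours. It was 0.12 without medulloblastoma 1 and -0.27 without medulloblastoma 2, where 5 mitosis genes were called (5.57% of all genes), so its sign rests on medulloblastoma 1. The median standard deviation among the 4 tumours was 0.28 for the mitosis genes and 0.31 for all genes tested.

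Related genes of the cell cycle were examined in the same fit. The 20 S phase genes had a median of 0.77, with 18 above the cerebellum in every tumour but no call. The furthest were Mcm4 (1.32 ± 0.29), Mcm2 (1.16 ± 0.31) and Pola1 (1.17 ± 0.35), which encode replicative helicase subunits and the catalytic subunit of DNA polymerase alpha. Tyms, the thymidylate synthase gene, was on the lower side (-0.60 ± 0.54), at 108, 252, 196 and 117 in tumours, against 259 in cerebellum. Cohesin genes had a median of 0.65 over 15, with 12 above in every tumour but no call, among them the loading factor gene Nipbl (0.94 ± 0.25) and, furthest, Sgo1, the guardian of centromeric cohesin (1.199). The inner kinetochore and Mis12 complex had a median of 0.54 over 19 genes, 10 above and 2 below the cerebellum in every tumour but no call. Its range was wide, with Cenph (1.76 ± 0.49) and Cenpi (1.51 ± 0.36) furthest on the higher side and Nsl1 (-0.86 ± 0.41) and Cenpt (-0.81 ± 0.29) on the lower.

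Switches of mitotic entry numbered 10, with a median of 0.50; in 7 every tumour lay above the cerebellum, and 1 was called higher. This was Wee1, the kinase that holds Cdk1 inactive, which read 1288, 1163, 1183 and 1038 in medulloblastomas 1 to 4, against 332 in the P5 cerebellum (1.72 ± 0.26, limma adjusted p = 0.0424). The phosphatases that oppose Wee1 were near the cerebellum, with Cdc25a at 0.31 ± 0.31, Cdc25b at 0.10 ± 0.25 and Cdc25c at -0.08 ± 0.39. So was Pkmyt1, another kinase that holds Cdk1 inactive, at 0.18 ± 0.24. Mastl, the Greatwall kinase, differed by 0.84 ± 0.35, and Cks2, a small partner of Cdk1, by 0.83 ± 0.27. Subunits of the anaphase-promoting complex had a median of 0.02 over 15 genes, with 2 above and 2 below the cerebellum throughout but no call, from -0.30 ± 0.32 for its activator gene Fzr1 to 0.48 ± 0.29 for Anapc16. MuvB and DREAM factors control the transcription of mitosis and S phase genes. This list, which also holds E2F and NF-Y genes outside those complexes, had a median of 0.11 over 20 genes. For 6 every tumour lay above the cerebellum and for 1 below it, with no call. Among MuvB subunit genes, Lin54 (0.60 ± 0.61), Lin52 (0.56 ± 0.48), Lin9 (0.52 ± 0.39) and Rbbp4 (0.21 ± 0.19) were on the higher side. Lin37 was on the lower side in every tumour (-0.47 ± 0.33). E2f1, an activator of S phase genes, differed by 0.69 ± 0.32 and its partner gene Tfdp1 by 0.68 ± 0.27, whereas Mybl2, which encodes B-Myb, read 437, 625, 533 and 673 in tumours, against 562 in cerebellum, and E2f5 differed by -0.99 ± 0.69.

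**Figure D5:**
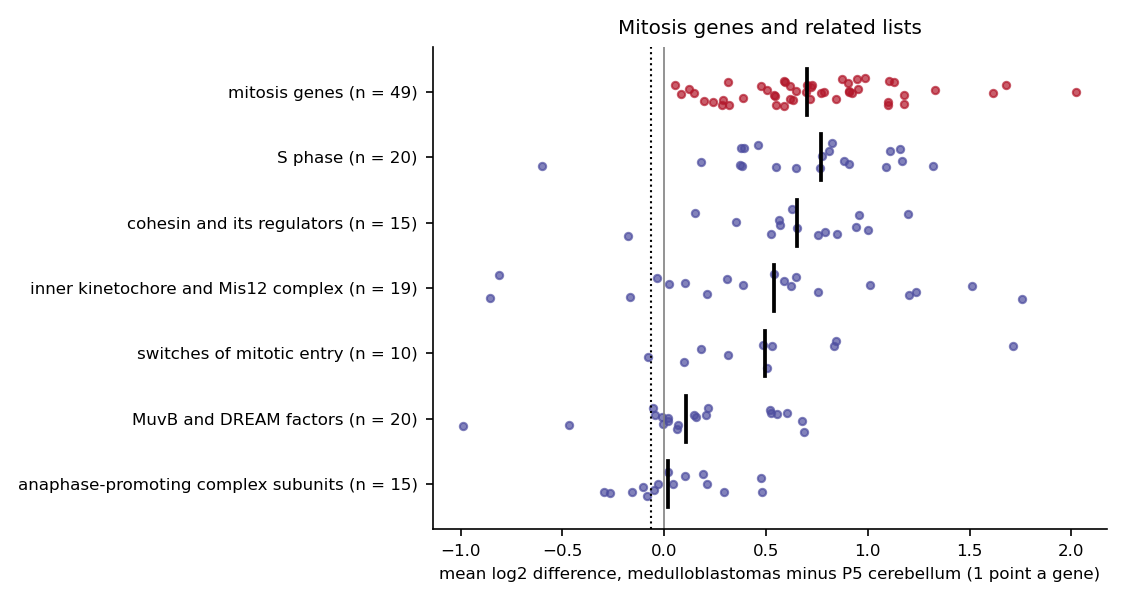
Mean log2 difference, medulloblastomas minus P5 cerebellum (horizontal axis), of each gene (points) in the mitosis list and in 6 related lists (rows, with the number of genes), with the median of each list as a black bar and that of all genes as a dotted line. Mitosis, S phase and cohesin genes have medians between 0.65 and 0.77, and those of MuvB and DREAM factors and of the anaphase-promoting complex are 0.11 and 0.02. The list of MuvB and DREAM factors also holds E2F and NF-Y genes outside those complexes.

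Mitosis genes with and without a CHR match lay at similar distances from the cerebellum. The median difference was 0.72 in 31 measured genes with a CHR match and 0.71 in 10 measured genes whose window held none. Every tumour was above the cerebellum in 29 of the 31 and in 9 of the 10. Single genes went both ways. Pttg1, furthest from the cerebellum, had no match of either motif in its window, whereas Cdc20 and Espl1, which lay close to the cerebellum, had both. Ndc80 (1.68), Smc2 (1.62) and Anln (1.33), the next furthest, each had a CHR match, and Nuf2 (0.29), close to the cerebellum, had neither motif. No test was made of this split.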

How the data were processed

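The deposited signal intensities are linear values, 1 for each probe set on an array. Per the submitters' processing notes MAS5 produced those of the cerebellum and of medulloblastomas 1, 2 and 4; for medulloblastoma 3 the tool is not given in the sources used here. The mean after removing 2% of probe sets at each end was 500.002 on every array, and median signals were between 191 and 213 in tumours and 232 in the cerebellum. Detection calls were not used, and the number of arrays limits the precision. Of 45101 probe sets, 64 were controls. The platform annotation gave 1 gene symbol to 34945, several to 932 (not used) and none to 9160. By Entrez gene ID 34741 were found in the RefSeq genes of GRCm38.p6, and 0 symbols changed.

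Groups follow the labelled tissue, and replicate numbers follow accession order. Nothing states whether the tumours came from separate animals, so p-values measure the spread between these samples. Signals were scaled to a trimmed mean of 500, genes took their brightest probe set, a mean of at least 100 was required, and log2(signal + 32) was taken, which understates differences of dim genes. limma 3.58.1 in R 4.3.3 (lmFit, eBayes with a variance trend) compared 4 tumours with 1 cerebellum over 14109 genes, two-sided, with Benjamini-Hochberg adjustment and a threshold of 0.05; 3 residual degrees of freedom came from the tumours, so the lone cerebellum is taken to share their spread. The procedure was tested on simulated data. There the cerebellum was drawn with the spread of the tumours, so the simulation cannot check that shared spread. The members, lists and rules were chosen with earlier results of these data known. Every mitosis gene could be named. Signals on all arrays are given for 9 measured genes set by name (Cdk1, Foxm1, Plk1, Aurka, Aurkb, Birc5, Mki67, Top2a and Cdc20), for up to 4 of each role furthest from the cerebellum, for genes with a bright probe set of opposite sign and for genes called; of related lists up to 4 genes furthest from the cerebellum were to be named. Tyms, Cdc25a, Cdc25b, Cdc25c, Pkmyt1, Mybl2, Lin52, Lin9, Rbbp4 and Lin37 fall outside that rule and were named after their values were seen. Alternatives were other scalings, constants, filters, probe set choices, thresholds and sets of arrays.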

Additional observations from a re-analysis of the deposited data

Results flagged for a closer look

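In 6 of the 49 mitosis genes 1 tumour stood apart from the other 3, in that its gap to the nearest tumour took up more of the whole range of the 4 log2 signals than Dixon's critical value, which chance passes in about 1 of 20 groups of 4. The share of all genes tested that pass this rule was not counted, so the 6 cannot be read as an excess among mitosis genes. Medulloblastoma 1 was the low one for Cenpa (0.909 of the range), Racgap1 (0.887), Top2a (0.877) and Ncapg (0.868). It was the high one for Bub3 (0.883), at 6411 beside 4090.3 to 4311 in the other tumours. Medulloblastoma 2 was the high one for Kif4 (0.906), where the tumours spanned only 934 to 1064. Medulloblastoma 1 also had the highest ratios of 3' to 5' signal for actin and Gapdh, and their part in these values was not tested.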

How the results depend on the processing

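No paired analysis was possible because there is 1 cerebellum and the array numbers are only names. The median difference of the mitosis genes, 0.70, stayed between 0.61 and 0.89 over 18 alternatives. The count above the cerebellum in every tumour used, 43 of 49, stayed between 37 and 48, where the share of all genes ran from 21.8% to 37.6%. The other filters, the other threshold and the fit without the variance trend cannot change a difference of these genes, so they check only the calls. Leaving out the scaling hardly can, since the arrays already shared a trimmed mean. Scaling to equal medians set the median of all genes at 0.12, against -0.07, and left the mitosis genes 0.77 above it in both cases; the split of calls became 78 higher and 20 lower, against 44 and 25. Of 881 values of single mitosis genes under an alternative, 825 kept their direction and side of the threshold, 43 passed it newly, 5 no longer did (all of Pttg1, which was called in 13 of 18 alternatives) and 8 changed sign. The sign changes were Aurka at -0.17, Cenpf at -0.0555 and Tpx2 at -0.14 with the mean of all probe sets, Nek2 at -0.0152 without probe sets that can bind several transcripts, Foxm1 at -0.0447 within the hmk arrays, and Tpx2 at -0.22 with the ken tumours, -0.0534 without medulloblastoma 3 and -0.0193 without medulloblastoma 4; with 1 tumour left out Tpx2 ran from -0.0534 to 0.27.

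The counts of calls were less stable. Unadjusted counts of all genes given here hold both directions. Mitosis genes called by limma were 2 with equal medians (0.553% of all genes called higher), quantile normalization (0.432%) or a threshold of 0.1 (0.695%). Within the hmk arrays they were 23 (5.93%). Without the variance trend there were 0 (0% of all genes), with 12 at an unadjusted p under 0.05, as for 2007 of all 14109 genes. Without the probe sets that can bind several transcripts there were also 0 (51 of 13761 called higher), with 26 unadjusted, as for 2088 of 13761. With 1 tumour left out there were 0 to 19 (0% to 3.18%). Genes called in all, 69, were 1678 within the hmk arrays, 37 with the ken tumours, 28 with the mean of all probe sets, 26 with no filter, 0 without the variance trend (2007 unadjusted), 163 at a threshold of 0.1 and 0 to 831 with 1 tumour left out, highest without medulloblastoma 1. Between ken and hmk tumours, genes called, 6, were 10 with the larger constant, 12 with equal medians, 1 with no filter, 0 without the variance trend (1388 unadjusted), 25 at a threshold of 0.1 and 0 to 786 with 1 tumour left out; mitosis genes called were then 0 to 5 and their median difference -0.27 to 0.12. Beyond the alternatives' own construction the cause was not tested. The single cerebellum limits every comparison, and its own spread is unknown.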
